A study of Mus musculus with 12 samples.

Results

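The genes described here are 3 cytokines of the interleukin-6 (IL-6) family, Lif, Osm and Il6, and 4 receptor chains, Il6ra, Il6st, Lifr and Osmr. They were taken by symbol from a table of read counts for 49315 mouse genes, and all 7 were in it. RNA was sequenced from 12 libraries, 3 in each of 4 groups, all from C57BL/6 mice with no genetic change named. ILC2s (group 2 innate lymphoid cells) make type 2 cytokines in tissues although they lack antigen receptors. Those used here came from lung and had been expanded with IL-33, IL-2, IL-25 and IL-7, rested for 48 h in IL-2 plus IL-7, washed, and then cultured for 24 h without cytokines, either alone or with eosinophils. Blood eosinophils, granulocytes of type 2 immunity, were the cells left after magnetic depletion with antibodies to B220 and CD90. They were kept for 24 h in IL-33, washed, and cultured for 24 h without cytokines, either alone or with ILC2s. The cells were then separated by flow cytometry. All eosinophils had thus met IL-33 and all ILC2s had been grown in cytokines, so no group stands for untreated cells. The labels do not say whether replicates came from separate animals or cultures, so the p-values reflect only how these libraries vary, and that variation may be technical.

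Cytokines of the IL-6 family act through receptor complexes that contain gp130, the signalling chain encoded by Il6st. IL-6 binds its own chain, IL-6 receptor alpha (Il6ra), leukemia inhibitory factor (Lif) binds the LIF receptor (Lifr), and mouse oncostatin M (Osm) signals mainly through the oncostatin M receptor (Osmr), each together with gp130. The assembled receptors activate Janus kinases and the transcription factor STAT3, and one STAT3 target, Socs3, encodes an inhibitor that binds gp130 and ends the signal. In type 2 inflammation of the lung, IL-6, LIF and oncostatin M are known to act on epithelium, stroma and leukocytes.

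The libraries held between 16769929 and 22928961 counts, so a gene with 3 counts in a library had 0.131 to 0.179 CPM (counts relative to the library total, the usual scale of RNA-seq). This floor covers counting error only. Levels are CPM scaled by the trimmed mean of M values (TMM) over all 12 libraries, and the error of a level is the SD over n = 3 libraries. Defining markers of each cell type were where the labels put them. Siglecf, an eosinophil lectin, stood at 1305 and 1331 CPM in eosinophils cultured alone and with ILC2s, and at 0.236 and 0.270 CPM in the corresponding ILC2s. Gata3, the transcription factor of ILC2s, stood at 774 and 738 CPM in ILC2s and at 1.38 and 0.303 CPM in eosinophils. The fraction labelled eosinophils also held transcripts used as markers of other blood cells, and those values are given beside the eosinophil results. In bulk RNA, fewer cells expressing a gene and less of its RNA per cell cannot be told apart.

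On mm10, Osm (ENSMUSG00000058755, chr11:4236420-4241026) and Lif (ENSMUSG00000034394, chr11:4257557-4272514) are neighbours on the plus strand, with 16.5 kb between them. Il6 (ENSMUSG00000025746) lies at chr5:30013114-30019981 on the plus strand. Il6ra (ENSMUSG00000027947) lies at chr3:89864059-89913196 on the minus strand, and Il6st (ENSMUSG00000021756) at chr13:112464070-112510086 on the plus strand. Osmr (ENSMUSG00000022146, chr15:6813577-6874969, minus strand) and Lifr (ENSMUSG00000054263, chr15:7090614-7197489, plus strand) are also neighbours, 216 kb apart. Counts were summed over each gene, so no exon, intron or untranslated region is reported separately.

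RefSeq promoter windows on GRCm38.p6, the assembly behind mm10, were found for Lif, Il6, Il6ra, Il6st, Lifr and Osmr. The 250 bases before the annotated start are shown for Lif and Il6, both of which rose in cocultured ILC2s, and for the shared receptor Il6st. They are written 5′ to 3′ on the coding strand, at chr11:4257318-4257567 for Lif, chr5:30012864-30013113 for Il6 and chr13:112463820-112464069 for Il6st. Capitals mark matches to the AP-1 motif (TGANTCA) and to the NF-kB consensus.
Lif: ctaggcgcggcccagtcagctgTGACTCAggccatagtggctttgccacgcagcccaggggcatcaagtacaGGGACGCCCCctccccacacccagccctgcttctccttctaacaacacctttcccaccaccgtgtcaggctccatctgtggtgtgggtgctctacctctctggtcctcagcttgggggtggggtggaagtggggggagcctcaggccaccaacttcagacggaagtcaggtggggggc
Il6: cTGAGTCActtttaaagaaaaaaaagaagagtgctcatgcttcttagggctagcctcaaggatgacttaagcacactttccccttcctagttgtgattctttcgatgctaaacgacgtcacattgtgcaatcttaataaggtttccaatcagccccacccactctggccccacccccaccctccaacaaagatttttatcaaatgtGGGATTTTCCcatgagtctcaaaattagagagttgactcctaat
Il6st: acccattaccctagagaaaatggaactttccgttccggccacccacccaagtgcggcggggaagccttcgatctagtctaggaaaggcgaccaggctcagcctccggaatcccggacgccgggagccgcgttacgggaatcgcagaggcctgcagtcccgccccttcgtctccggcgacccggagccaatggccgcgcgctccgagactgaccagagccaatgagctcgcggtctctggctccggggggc
The windows were searched on both strands for the AP-1 motif, the NF-kB consensus, the cyclic AMP response element (TGACGTCA) and the STAT motif (TTCNNNGAA), and no matches overlapped in the sequences shown. In Lif the AP-1 match TGACTCA lay 228 to 222 bases before the start and the NF-kB match 178 to 169 bases before it. In Il6 the AP-1 match TGAGTCA lay 249 to 243 bases before the start and the NF-kB match 44 to 35 bases before it. The windows of Il6ra, Il6st, Lifr and Osmr held none of the 4 motifs. Among 32851 RefSeq promoters of the same length, 6.75% held the AP-1 motif, 7.25% the NF-kB consensus, 7.02% the STAT motif and 1.55% the cyclic AMP response element. Both AP-1 and NF-kB were held by 0.356%. A match of letters is a description of the sequence and not a measured binding site.

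ILC2s cultured with eosinophils carried far more Lif, more Osm and Il6, somewhat more Il6st and less Il6ra than ILC2s cultured alone. Lifr and Osmr had too few counts in ILC2s to be tested. All 5 tested members passed the threshold, an adjusted p under 0.05 in the edgeR quasi-likelihood test over 14438 genes. In this comparison 72.4% of all tested genes passed it, 36.8% higher and 35.6% lower, so the count of members is near that background and the sizes of the changes carry the description. The median log2 fold change of the 5 was 2.45, against 0.00293 over all tested genes.

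Lif encodes a cytokine known for holding stem cells undifferentiated and for acting on many tissues. It stood at 7.18, 7.61 and 6.84 CPM in the 3 libraries of ILC2s alone and at 697, 749 and 657 CPM in the 3 libraries of ILC2s with eosinophils. The groups did not overlap, and the spread within each was small beside the gap. The log2 fold change was 6.58 ± 0.06 (SE), a 96.0-fold difference, with edgeR adjusted p = 1.68e-33. Lif had the smallest p of all 14438 genes tested in ILC2s and ranked 36 by fold.

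Osm encodes a cytokine made mainly by blood cells. It stood at 27.9, 28.4 and 27.3 CPM in ILC2s alone and at 154, 152 and 159 CPM in ILC2s with eosinophils. All cocultured libraries were above all libraries of ILC2s alone, and the log2 fold change was 2.45 ± 0.05 (edgeR adjusted p = 1.44e-26). Il6, the founding cytokine of the family, stood at 3.17, 4.25 and 2.68 CPM in ILC2s alone and at 28.0, 29.9 and 29.9 CPM after coculture. Its groups were also apart, with a log2 fold change of 3.11 ± 0.12 (edgeR adjusted p = 1.29e-19).

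Il6ra encodes the chain that lets a cell bind IL-6 directly. It stood at 2.62, 4.34 and 3.37 CPM in ILC2s alone and at 0.133, 0.373 and 0.300 CPM after coculture, and the groups did not overlap. The cocultured libraries held 3, 8 and 7 counts of the gene, so their level is close to the detection limit, and the log2 fold change of -3.68 ± 0.35 (edgeR adjusted p = 1.42e-10) rests on those few counts. Il6st, the gp130 gene, moved the other way. It stood at 14.9, 13.3 and 15.9 CPM in ILC2s alone and at 24.6, 26.7 and 25.5 CPM after coculture, a log2 fold change of 0.77 ± 0.09 (edgeR adjusted p = 3.16e-09). All 3 cocultured libraries were above the 3 of ILC2s alone.

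Lifr gave 26 counts over the 3 libraries of ILC2s alone and 10 over the 3 with eosinophils, at most 0.467 CPM in any of them. Osmr gave 12 and 17 counts, at most 0.373 CPM, and was at 0 in 1 library of ILC2s alone. Without a filter on low counts, the log2 fold change was -1.31 ± 0.71 for Lifr (edgeR adjusted p = 0.156) and 0.53 ± 0.76 for Osmr (edgeR adjusted p = 0.605). The groups did not overlap for Lifr and did for Osmr. Neither difference passed the test in ILC2s at this depth.

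**Figure D1:**
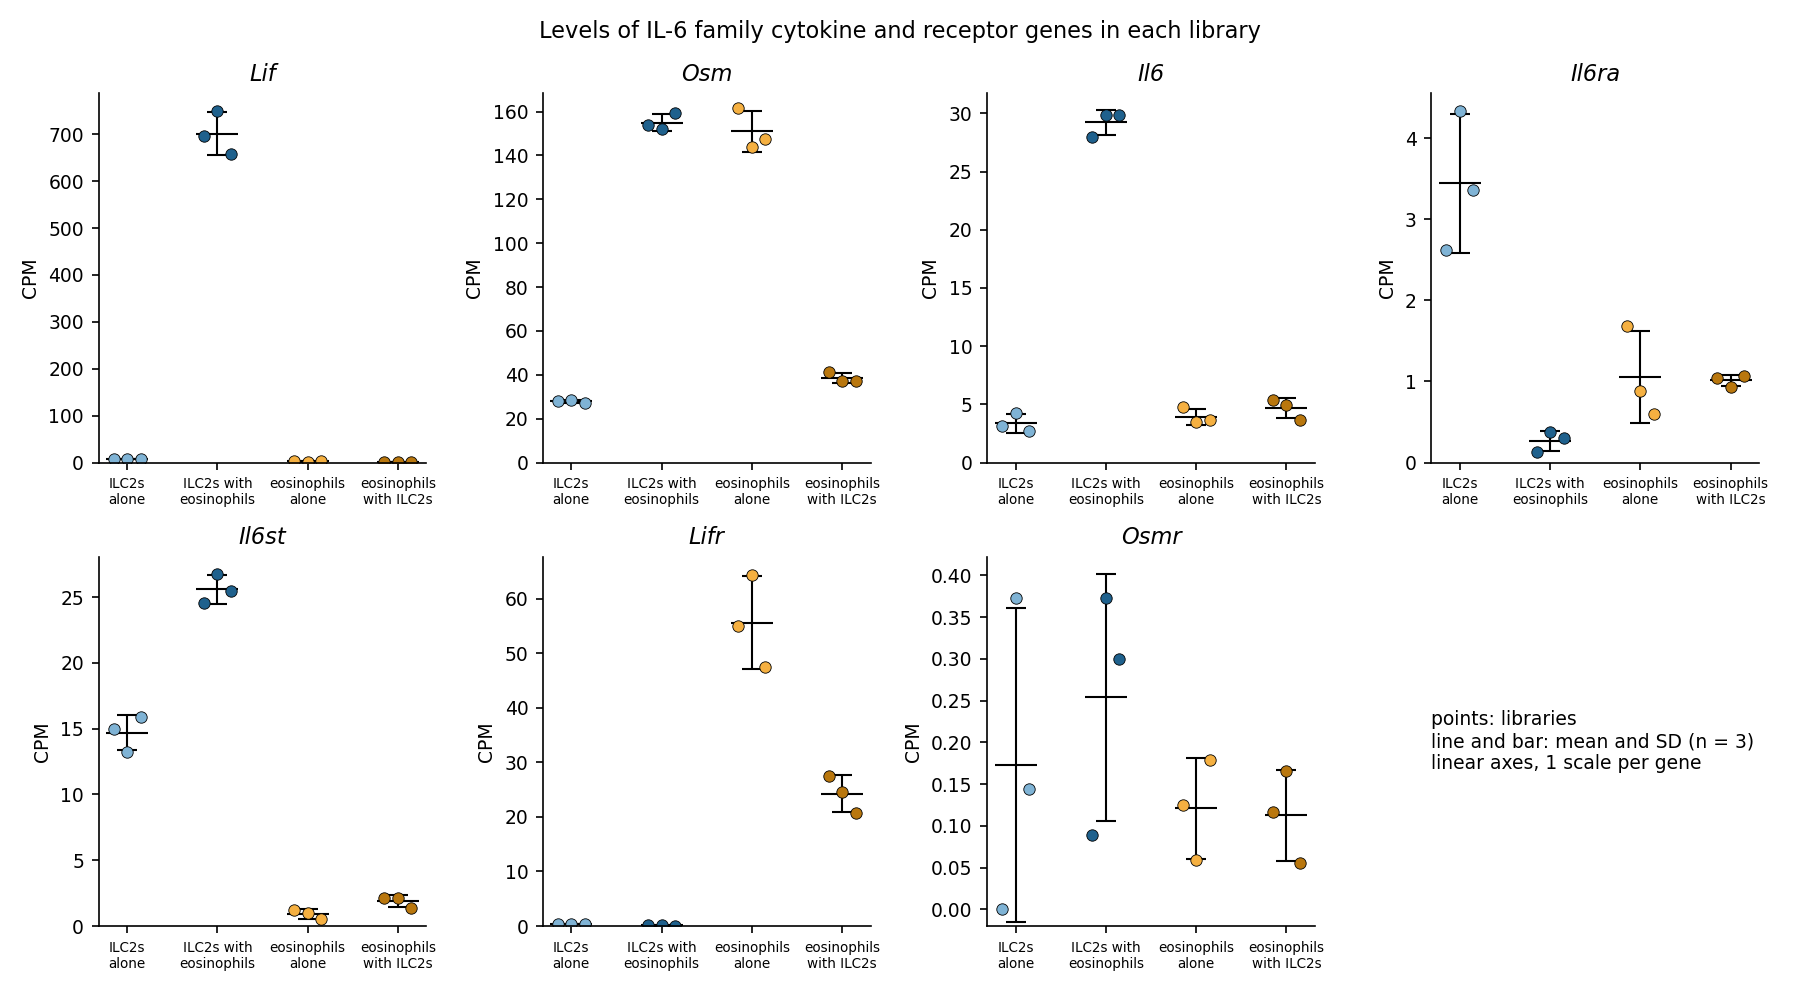
Level of each of the 7 genes in CPM by group, on linear axes with a scale for each gene. Points are libraries, lines the group mean and error bars the SD (n = 3). The 3 libraries of ILC2s with eosinophils stand highest for Lif, Il6 and Il6st, Lifr is high in eosinophils, and Osmr stays at or below 0.373 CPM in all 12 libraries.

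Eosinophil RNA was a possible addition to the sorted ILC2 libraries, and its share was measured. Over 11 eosinophil markers, the median level in ILC2 libraries as a percentage of that in cocultured eosinophils was 0.00962 to 0.0414% in ILC2s alone and 0.0227 to 0.0318% after coculture. In cocultured ILC2s 2 of 12 eosinophil markers reached 1 CPM, their summed level was 3.35 to 4.46 CPM against 2.90 to 3.73 CPM in ILC2s alone, and Prg3 and Ear2 were at 0. Cocultured eosinophils held less Lif (0.300 ± 0.0814 CPM), Osm (38.6 ± 2.37 CPM), Il6 (4.65 ± 0.861 CPM) and Il6st (1.88 ± 0.467 CPM) than cocultured ILC2s. Neutrophil markers summed to 0.145 to 0.420 CPM in ILC2s alone and to 1.96 to 6.13 CPM after coculture, with 1 of 10 markers at 1 CPM or more, Mpo (2.53 ± 1.59 CPM), and with S100a8 and S100a9 at 0. Basophil and mast cell markers summed to 135 to 147 CPM and 53.2 to 65.2 CPM, again with 1 of 11 at 1 CPM or more and with Tpsb2 and Mcpt4 at 0 in both groups. B cell markers summed to 130 to 144 CPM in ILC2s alone and to 54.3 to 62.1 CPM after coculture, with 3 and 2 of 6 at 1 CPM or more and Ms4a1 at 0 after coculture. The part of these other markers in the ILC2 results was not tested.

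Eosinophils cultured with ILC2s carried less Lif, Osm and Lifr than eosinophils cultured alone, and no member was higher by the test. Of the 6 members tested, 3 passed the edgeR threshold, and all 3 were lower. Over the 13109 genes tested in eosinophils 24.9% passed, 11.4% higher and 13.5% lower. The median log2 fold change was -0.68 over the 6 members and 0.00435 over all tested genes.

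Osm in eosinophils stood at 162, 144 and 147 CPM in eosinophils alone and at 41.3, 37.0 and 37.3 CPM after coculture, and the groups were far apart. The log2 fold change was -2.02 ± 0.08 (edgeR adjusted p = 6.12e-10). Lif was scarce in eosinophils, at 3.24, 2.18 and 3.88 CPM alone and 0.291, 0.386 and 0.224 CPM after coculture. Those are 52, 37 and 65 counts against 5, 7 and 4, without overlap, and the log2 fold change was -3.39 ± 0.39 (edgeR adjusted p = 2.21e-05). Il6 stood at 4.74, 3.48 and 3.64 CPM alone and at 5.36, 4.91 and 3.69 CPM after coculture. These ranges overlapped, and the log2 fold change was 0.18 ± 0.22 with edgeR adjusted p = 0.614, short of the threshold.

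Lifr, the LIF receptor gene, had the highest level per kb of exon in eosinophils among the 4 receptor chains described. In CPM it stood at 54.9, 64.4 and 47.5 CPM alone and at 27.5, 24.6 and 20.7 CPM after coculture, with every cocultured library below every other one. The log2 fold change was -1.25 ± 0.13 (edgeR adjusted p = 7.32e-06). Il6st was low, at 1.25, 1.00 and 0.537 CPM alone and 2.15, 2.15 and 1.34 CPM after coculture, or 46 against 100 counts over 3 libraries. The groups were just apart, but the log2 fold change of 0.96 ± 0.38 missed the threshold (edgeR adjusted p = 0.0889). It passed in the fit of all 12 libraries (0.99, edgeR adjusted p = 0.0105), so the call depends on the fit. Il6ra stood at 1.68, 0.885 and 0.596 CPM alone and at 1.05, 0.937 and 1.06 CPM after coculture, inside the spread of the first group (log2 fold change -0.11 ± 0.42, edgeR adjusted p = 0.888). Osmr gave 6 counts in each eosinophil group, at most 0.179 CPM in a library.

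Markers of other blood cells moved in the eosinophil libraries together with these falls. Basophil and mast cell markers summed to 221 to 245 CPM in eosinophils alone and to 113 to 120 CPM after coculture, with 6 of 11 at 1 CPM or more in each group and Mcpt4 at 0 in both. Of those 6, Gata2 (175 ± 11.5 and 91.2 ± 3.39 CPM), Hdc (38.1 ± 3.76 and 16.2 ± 1.68 CPM), Kit (13.1 ± 1.34 and 3.04 ± 0.833 CPM) and Fcer1a (4.23 ± 0.533 and 1.90 ± 0.222 CPM) had lower means after coculture. The other 2 did not, since Cpa3 stood at 1.15 ± 0.343 and 1.12 ± 0.514 CPM and Ms4a2 at 3.20 ± 0.550 and 3.95 ± 0.499 CPM. Monocyte and macrophage markers summed to 2155 to 2349 CPM and 2052 to 2134 CPM, with 5 of 10 at 1 CPM or more in each group and none at 0. Within that list Ly6c2 stood at 47.1 ± 5.76 and 22.4 ± 1.39 CPM, Adgre1 at 1739 ± 68.7 and 1578 ± 44.8 CPM and Csf1r at 420 ± 31.7 and 466 ± 6.05 CPM. Neutrophil markers summed to 313 to 342 CPM alone and to 806 to 909 CPM after coculture, with 6 of 10 at 1 CPM or more and Camp at 0 in both groups. Cxcr2 was the largest part of that sum in eosinophils alone, at 205 ± 4.35 CPM against 116 ± 8.87 CPM after coculture. Retnlg was the largest after coculture, at 109 ± 16.7 and 729 ± 47.6 CPM, and made most of the rise in the sum. Means also fell for S100a8 (4.28 and 1.28 CPM) and S100a9 (5.76 and 2.32 CPM). They were lower too for Ly6g (2.59 ± 1.17 and 1.66 ± 0.856 CPM) and Ltf (1.01 ± 0.358 and 0.599 ± 0.314 CPM), within overlapping SDs. Mmp8 was higher after coculture, at 0.461 ± 0.119 and 2.18 ± 0.286 CPM. B cell markers summed to 194 to 235 CPM and 247 to 266 CPM, with 3 of 6 at 1 CPM or more in each group, and Ighm stood at 199 ± 19.3 and 234 ± 12.0 CPM. The 12 eosinophil markers summed to 9992 to 11077 CPM alone and to 13123 to 13823 CPM after coculture. Adgre1 is on the eosinophil list as well. Whether other cells were present, and their part in the lower Osm, Lif and Lifr, was not tested. Relative to cocultured ILC2s, ILC2 markers had a median level of 0.163 to 0.275% in eosinophils alone and 0.108 to 0.144% in cocultured eosinophils (10 markers). Lif in cocultured eosinophils was 0.0428% of its level in cocultured ILC2s, and Il6st was 7.36%.

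**Figure D2:**
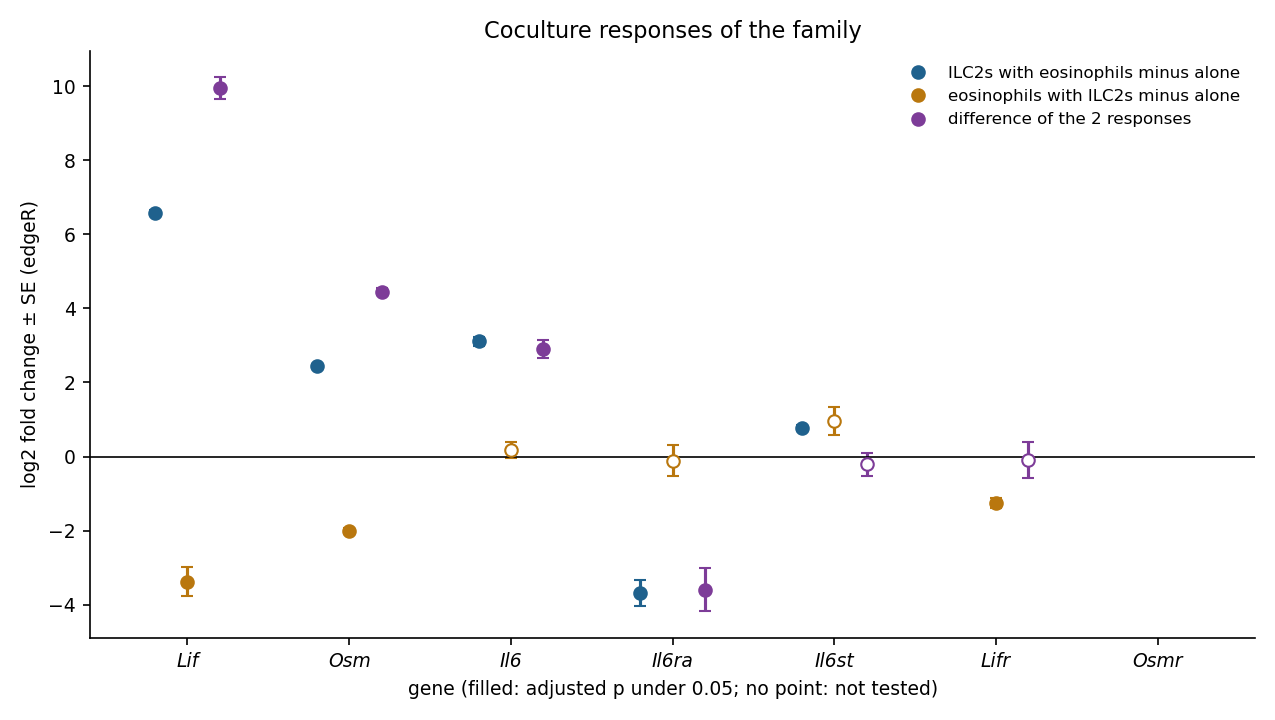
log2 fold change with coculture (y axis, error bars SE) of each gene in ILC2s (blue) and eosinophils (brown), and the difference of the responses (purple). Filled points passed the edgeR threshold, open points did not, and genes not tested have no point. Lif and Osm lie above 0 in ILC2s and below 0 in eosinophils, at 6.58 and -3.39 for Lif and at 2.45 and -2.02 for Osm.

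The response to coculture differed between the 2 cell types for the 3 cytokines and for Il6ra. This was tested as a difference of responses in a fit of all 12 libraries, where 51.5% of 15745 genes passed the edgeR threshold and 4 of 6 tested members did. Lif and Osm went in opposite directions. The log2 response of ILC2s minus that of eosinophils was 9.96 ± 0.29 for Lif (edgeR adjusted p = 1.29e-18) and 4.46 ± 0.10 for Osm (edgeR adjusted p = 4.49e-21). Cocultured eosinophils held only 16 counts of Lif over 3 libraries, so the size of its difference rests in part on those few counts. For Il6 the difference was 2.91 ± 0.25 (edgeR adjusted p = 7.02e-10), with a rise in ILC2s and no call in eosinophils. For Il6ra it was -3.59 ± 0.58 (edgeR adjusted p = 1.44e-05). The difference was -0.21 ± 0.31 for Il6st (edgeR adjusted p = 0.604) and -0.10 ± 0.48 for Lifr (edgeR adjusted p = 0.897), and neither passed. The lack of a call for Lifr says little, since ILC2s held so few counts of it.

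Between cell types cultured alone, ILC2s held more Lif, Il6ra and Il6st, and eosinophils held more Osm and Lifr. Tissue of origin and earlier cytokines differed too, so cell type cannot be told apart from them. Of the 6 members tested 5 passed, against 80.7% of 14525 genes. The log2 difference, ILC2s minus eosinophils, was 3.87 ± 0.22 for Il6st (edgeR adjusted p = 2.89e-10) and -7.30 ± 0.19 for Lifr (edgeR adjusted p = 2.87e-14). It was -2.55 ± 0.07 for Osm (edgeR adjusted p = 5.58e-14), 1.59 ± 0.35 for Il6ra (edgeR adjusted p = 0.000777) and 1.10 ± 0.20 for Lif (edgeR adjusted p = 0.000139). Il6 did not pass, at -0.35 ± 0.24 (edgeR adjusted p = 0.179).

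Between cocultured cells all 6 tested members passed, where 84.0% of 14634 genes did. Lif was higher in ILC2s by 11.04 ± 0.11 on the log2 scale (edgeR adjusted p = 1.91e-34), a size that rests in part on 16 counts in cocultured eosinophils. Osm was now higher in ILC2s, by 1.89 ± 0.06 (edgeR adjusted p = 3e-22), the reverse of the order in cells cultured alone. Il6 was higher in ILC2s by 2.53 ± 0.12 (edgeR adjusted p = 7.11e-18) and Il6st by 3.64 ± 0.15 (edgeR adjusted p = 9.7e-20). Lifr was lower in ILC2s, with a log2 difference of -7.41 ± 0.24 (edgeR adjusted p = 7.67e-22), and so was Il6ra, at -2.02 ± 0.44 (edgeR adjusted p = 0.000129). Lifr in cocultured ILC2s was 0.619% of its level in cocultured eosinophils.

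Across the 4 groups each gene had its own order of levels. Lif ranked from ILC2s with eosinophils through ILC2s alone and eosinophils alone to eosinophils with ILC2s, and no neighbours in that order overlapped. For Osm the top places were taken by ILC2s with eosinophils (155 ± 3.82 CPM) and eosinophils alone (151 ± 9.29 CPM), whose ranges overlapped. Eosinophils with ILC2s (38.6 ± 2.37 CPM) and ILC2s alone (27.9 ± 0.531 CPM) followed. For Il6 only ILC2s with eosinophils stood apart (29.2 ± 1.09 CPM), and the ranges of the other groups overlapped. Il6ra was highest in ILC2s alone (3.44 ± 0.862 CPM) and lowest in ILC2s with eosinophils, with the eosinophil groups overlapping between them. Il6st ran from ILC2s with eosinophils through ILC2s alone and eosinophils with ILC2s to eosinophils alone without overlap. Lifr ran from eosinophils alone (55.6 ± 8.48 CPM) to eosinophils with ILC2s (24.3 ± 3.41 CPM), ILC2s alone (0.380 ± 0.0762 CPM) and ILC2s with eosinophils (0.150 ± 0.0948 CPM). For Osmr all 4 groups overlapped, with 41 counts in 12 libraries.

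To compare levels between genes, CPM were divided by exon length in kb (CPM per kb). In ILC2s alone Osm led with 12.3 CPM per kb, ahead of Lif (1.66), Il6 (1.39) and Il6st (1.32). After coculture the level of Lif in ILC2s, 161 CPM per kb, was above that of Osm (68.2) and Il6 (12.0). Il6st, at 2.30 CPM per kb, had the highest level in ILC2s among the 4 receptor chains Il6ra, Il6st, Lifr and Osmr. In eosinophils alone Osm stood at 66.4 CPM per kb and Lifr at 5.16, while Il6 stood at 1.63, Il6ra at 0.122 and Il6st at 0.0837. In cocultured eosinophils Lifr stood at 2.25 CPM per kb and Il6st at 0.170. The 2 chains of the LIF receptor complex thus had their higher levels in different cells, Lifr in eosinophils and Il6st in ILC2s. Transcript levels say nothing of the receptor protein on the surface.

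**Figure D3:**
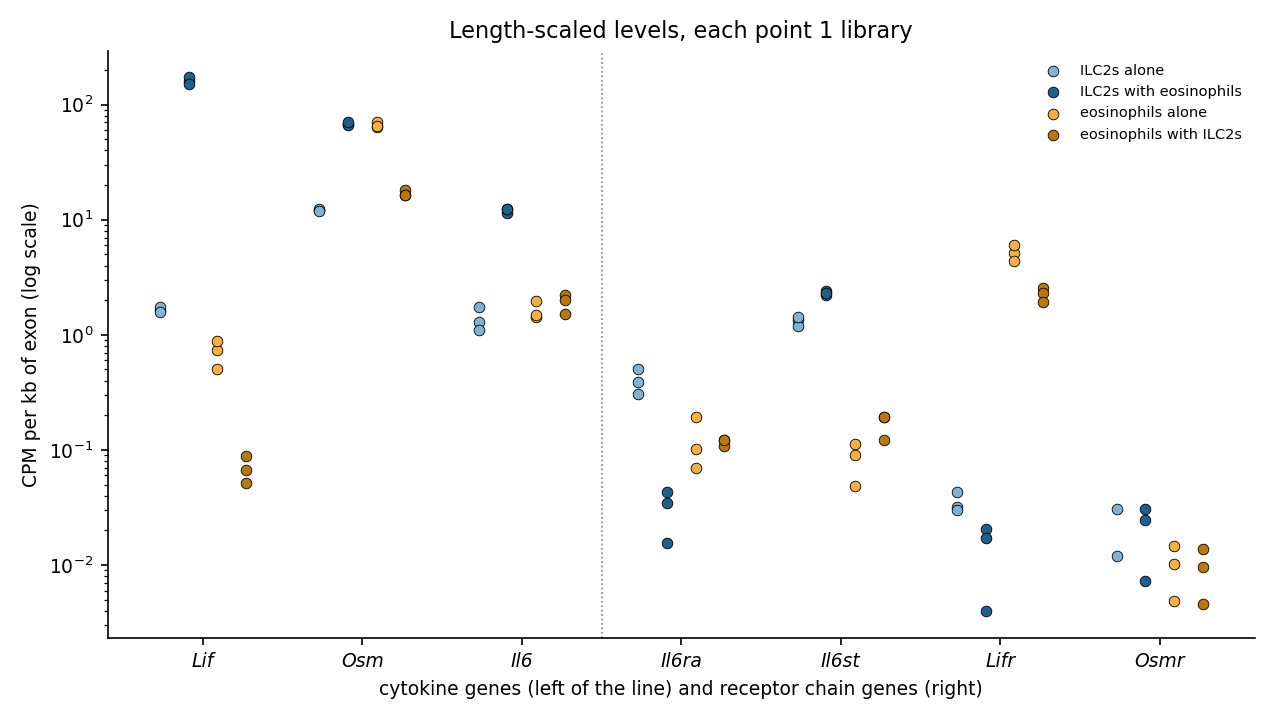
Level of each gene in CPM per kb of exon (log axis) in the 4 groups, with a point for each library. The Osmr value of 0 in 1 library of ILC2s alone is not drawn. Lif in ILC2s with eosinophils stands highest, with a mean of 161 CPM per kb, and Lifr and Il6st have their high levels in opposite cell types.

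The wider family was counted next, and each count is to be read against the shares of all tested genes called, 72.4% in ILC2s and 24.9% in eosinophils. Split by direction, those shares were 36.8% higher and 35.6% lower in ILC2s, and 11.4% higher and 13.5% lower in eosinophils. Among other ligand genes, Il11, Cntf, Ctf1, Ctf2 and Il31 were under 1 CPM in every group, at most 0.497 CPM. Clcf1, a cytokine of the same family, stood at 59.5 ± 3.54 CPM in ILC2s alone and 23.7 ± 2.55 CPM after coculture (log2 fold change -1.35 ± 0.07, edgeR adjusted p = 1.34e-16). Ebi3, a subunit of IL-27, rose in ILC2s from 21.7 ± 1.79 to 34.8 ± 0.278 CPM (0.67 ± 0.07, edgeR adjusted p = 3.59e-09). It was higher in eosinophils, at 229 ± 24.2 and 263 ± 5.93 CPM, and the other IL-27 subunit, Il27, stood at 38.1 ± 4.50 and 33.8 ± 1.87 CPM there and under 1 CPM in ILC2s. Of the 3 other ligands tested in ILC2s, 1 rose, 1 fell and 1 did not pass. In eosinophils edgeR, DESeq2 and limma-voom each called 0 of 3 after adjustment, and 2 of them, Il27 and Ebi3, were below 0.05 in edgeR without it. Il27 passed in 2 edgeR alternatives and Ebi3 in 4, both of them among others with a replicate block (edgeR adjusted p = 0.0439 for Il27 and 0.0211 for Ebi3).

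Of 5 other receptor chains 3 were under 1 CPM in every group (Il11ra2, Cntfr and Il31ra). Il11ra1, the IL-11 receptor chain, fell in ILC2s from 8.72 ± 0.782 to 3.51 ± 0.703 CPM (by log2 fold change -1.34 ± 0.15, edgeR adjusted p = 6.38e-09). Il27ra, which pairs with gp130 to bind IL-27, stood at 162 ± 2.75 and 155 ± 4.31 CPM in ILC2s and at 5.14 ± 0.755 and 5.37 ± 1.10 CPM in eosinophils. Its small ILC2 difference (-0.09 ± 0.04, edgeR adjusted p = 0.0385) was lost in 7 of its 14 alternatives. Neither chain passed in eosinophils, with or without adjustment in edgeR, or in DESeq2 or limma-voom. Genes of the proteases that shed IL-6 receptors, and of their regulators, were counted too. Of 5 shedding genes tested in ILC2s 1 rose and 1 fell, and of 4 in eosinophils 1 rose and 1 fell. The eosinophil rise was Adam10 (0.21 ± 0.07, edgeR adjusted p = 0.0487), and it was lost with a filter of 1 CPM (edgeR adjusted p = 0.0568) and in 5 of the 6 fits that left out 1 library (edgeR adjusted p = 0.055 to 0.163). Adam17 missed the threshold in both cells. With a replicate block it passed, higher in ILC2s (0.09, edgeR adjusted p = 0.0455) and lower in eosinophils (-0.18, edgeR adjusted p = 0.0199). Rhbdf2, which helps the protease ADAM17 mature, was lower in both cells, at -0.30 ± 0.07 in ILC2s (edgeR adjusted p = 0.000486) and -0.45 ± 0.05 in eosinophils (edgeR adjusted p = 3.27e-05).

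The Janus kinase and STAT genes were split. In ILC2s 4 of 11 rose, 5 fell and 2 did not pass. In eosinophils 3 rose, 2 fell and 6 did not pass. Stat3, which carries the gp130 signal, rose in ILC2s from 198 ± 5.57 to 354 ± 2.35 CPM (by log2 fold change 0.81 ± 0.04, edgeR adjusted p = 1.42e-17). Jak3, a kinase of receptors with the common gamma chain, rose in ILC2s by 1.20 ± 0.04 (edgeR adjusted p = 7.6e-22) and fell in eosinophils by 0.57 ± 0.08 (edgeR adjusted p = 7.17e-05). Jak1, the main kinase bound to gp130, fell in ILC2s from 633 ± 7.81 to 519 ± 8.94 CPM (-0.31 ± 0.04, edgeR adjusted p = 1.3e-08). It rose in eosinophils from 353 ± 24.0 to 451 ± 30.8 CPM (0.29 ± 0.06, edgeR adjusted p = 0.00272). Jak2 fell in eosinophils from 477 ± 22.0 to 389 ± 23.3 CPM (-0.35 ± 0.06, edgeR adjusted p = 0.00058).

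Of 15 signal inhibitors 6 rose, 5 fell and 4 did not pass in ILC2s, a share of calls near that of all genes. In eosinophils 1 rose, 6 fell and 8 did not pass, where 24.9% of all genes were called and 13.5% were lower. The eosinophil share of calls was thus above that of all genes, in a list chosen with earlier results known. The median log2 fold change was -0.01 in ILC2s and -0.08 in eosinophils, close to that of all genes. Socs3, the inhibitor that binds gp130, stood at 3.05 ± 0.272 CPM in ILC2s alone and 126 ± 12.3 CPM after coculture (5.34 ± 0.09, edgeR adjusted p = 3.69e-28). In eosinophils it stood at 133 ± 1.23 CPM alone and 45.3 ± 1.83 CPM after coculture (-1.61 ± 0.07, edgeR adjusted p = 8.75e-10). Cish and Socs1, cytokine-induced inhibitors of the same family, went the same ways. Cish rose by 1.45 ± 0.04 in ILC2s (edgeR adjusted p = 6.19e-23) and stood at 868 ± 22.9 and 302 ± 9.95 CPM in eosinophils alone and cocultured. Socs1 stood at 427 ± 50.1 and 128 ± 10.8 CPM in those eosinophils (-1.79 ± 0.08, edgeR adjusted p = 3.9e-09). Ptpn1, a phosphatase of Janus kinases, rose in ILC2s from 88.8 ± 6.01 to 232 ± 7.52 CPM (1.36 ± 0.04, edgeR adjusted p = 2.99e-21).

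The branch from gp130 through SHP2 to the MAP kinases was counted in both cells. Of 9 genes tested in ILC2s 5 rose, 2 fell and 2 did not pass, and of 10 in eosinophils 2 rose, 1 fell and 7 did not pass. Gab2, a docking adaptor, rose in ILC2s from 29.6 ± 1.46 to 92.4 ± 3.48 CPM (by log2 fold change 1.62 ± 0.05, edgeR adjusted p = 6.18e-21). Mapk3, which encodes ERK1, rose in eosinophils from 414 ± 53.1 to 586 ± 28.8 CPM (0.45 ± 0.07, edgeR adjusted p = 0.000443), and Pik3r1, a subunit of PI3 kinase, fell there from 171 ± 13.9 to 117 ± 9.73 CPM (-0.60 ± 0.08, edgeR adjusted p = 5.74e-05).

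Genes known as STAT3 targets rose more often than they fell in ILC2s. Of 20 such genes 17 were tested in ILC2s, where 13 rose, 3 fell and 1 did not pass, with a median log2 fold change of 1.23 against 0.00293 over all genes. In eosinophils 3 of 17 rose, 9 fell and 5 did not pass, with a median of -0.34 against 0.00435. Of all tested genes, 36.8% were called higher and 35.6% lower in ILC2s, and 11.4% higher and 13.5% lower in eosinophils. These genes answer to many other signals, and the list was drawn up with earlier results of these data known. Bcl3, a partner of NF-kB, rose in ILC2s from 21.7 ± 0.875 to 136 ± 5.56 CPM (2.63 ± 0.05, edgeR adjusted p = 3.41e-26). Batf, a transcription factor of the AP-1 family, rose from 23.8 ± 1.94 to 197 ± 4.68 CPM (3.03 ± 0.05, edgeR adjusted p = 6.87e-28). In eosinophils Pim1, a survival kinase, fell from 1991 ± 111 to 718 ± 55.6 CPM (-1.52 ± 0.07, edgeR adjusted p = 3.75e-09). Vegfa, the angiogenic growth factor, fell there from 163 ± 10.1 to 10.3 ± 2.25 CPM (-4.04 ± 0.12, edgeR adjusted p = 2.77e-11) and rose in ILC2s from 7.26 ± 0.303 to 80.8 ± 7.63 CPM. As for Osm, its order between the cells cultured alone was the reverse of that after coculture.

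**Figure D4:**
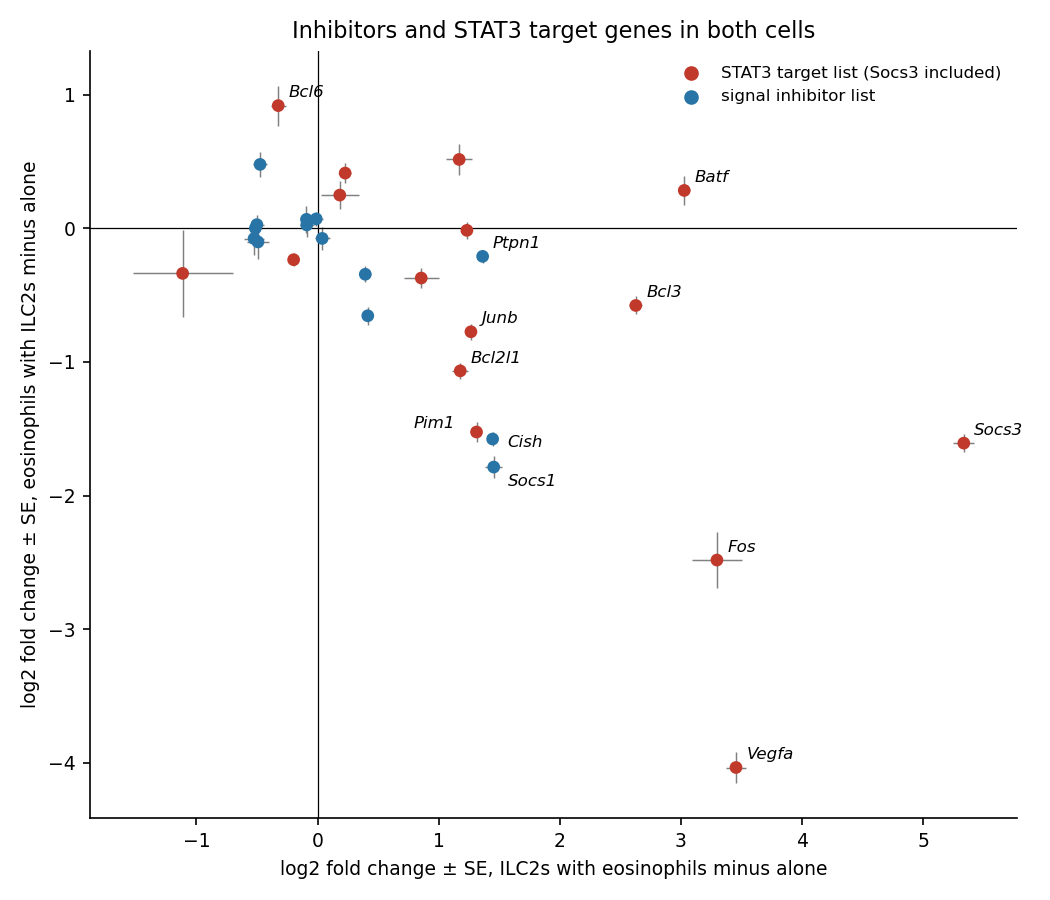
log2 fold change with SE in ILC2s (x axis) and in eosinophils (y axis) for 30 genes tested in both, from the STAT3 target list (red) and the signal inhibitor list (blue). Socs3, Vegfa, Fos, Pim1, Cish and Socs1 lie at the lower right, up in ILC2s and down in eosinophils, and Socs3 is farthest right at 5.34.

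Transcription factors that are known to induce Lif, Osm or Il6 were split, with 6 of 13 higher, 3 lower and 4 not called in ILC2s, and 4 higher, 4 lower and 5 not called in eosinophils. Egr1, an immediate early factor, stood at 2.30 ± 1.47 CPM in ILC2s alone and 40.7 ± 9.58 CPM after coculture (log2 fold change 4.15 ± 0.19, edgeR adjusted p = 1.63e-17), and at 39.3 ± 6.75 and 15.3 ± 1.98 CPM in eosinophils (-1.42 ± 0.13, edgeR adjusted p = 2.47e-06). Jun, a subunit of AP-1, rose in ILC2s from 9.59 ± 1.30 to 22.7 ± 3.29 CPM (1.23 ± 0.11, edgeR adjusted p = 4.69e-11). Nfatc2, a factor activated by calcium, rose in ILC2s by 0.37 ± 0.04 (edgeR adjusted p = 5.43e-10) and fell in eosinophils by 0.79 ± 0.07 (edgeR adjusted p = 3.15e-06). Relb, an NF-kB subunit, rose in eosinophils from 34.6 ± 4.36 to 57.0 ± 0.902 CPM (0.67 ± 0.09, edgeR adjusted p = 5.27e-05).

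Other protein-coding genes within 100 kb of Lif or Osm were examined because the pair lies side by side. Of 6 such genes 4 rose in ILC2s and none fell, and of 5 tested in eosinophils none rose and 1 fell. With both directions together, these counts are near the shares of all tested genes called in each comparison, 72.4% and 24.9%. By direction, 36.8% of all tested genes were called higher in ILC2s and 13.5% lower in eosinophils. The neighbours are too few to say anything particular about the region. Castor1, an arginine sensor of the mTORC1 pathway, lies 14.0 kb from Osm. It stood at 41.4 CPM in ILC2s alone and 152 CPM after coculture (log2 fold change 1.85 ± 0.05, edgeR adjusted p = 9.75e-24), and at 13.3 and 4.79 CPM in eosinophils (-1.53 ± 0.17, edgeR adjusted p = 1.25e-05), the same directions as Lif and Osm. Sf3a1, a splicing factor 53.9 kb from Osm, rose in ILC2s by 0.91 ± 0.05 (edgeR adjusted p = 8.88e-17) and did not pass in eosinophils (-0.12 ± 0.07, edgeR adjusted p = 0.262). Hormad2 and Tbc1d10a also rose in ILC2s, by 2.29 ± 0.15 and 0.41 ± 0.05, while Ccdc157 and Rnf215 did not pass in either cell. Near Lifr and Osmr, Rictor, a subunit of mTORC2, fell in ILC2s by 0.53 ± 0.04 (edgeR adjusted p = 6.16e-12) and did not pass in eosinophils (-0.24 ± 0.10, edgeR adjusted p = 0.0986), where Lifr fell.

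**Figure D5:**
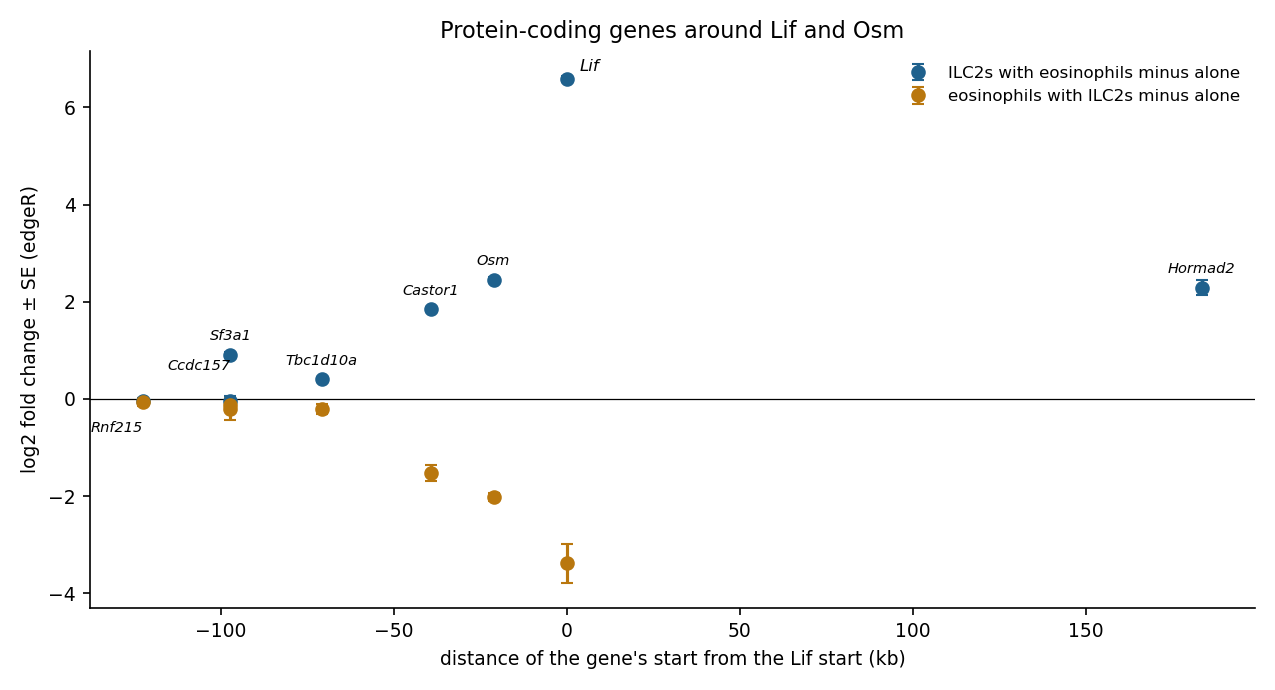
log2 fold change with SE of Lif, Osm and the other protein-coding genes within 100 kb of either gene's ends (y axis), against the distance of each start from that of Lif in kb, for ILC2s (blue) and eosinophils (brown). Hormad2 was not tested in eosinophils. Castor1, Osm and Lif are up in ILC2s and down in eosinophils, while Sf3a1 and Tbc1d10a are up in ILC2s and near 0 in eosinophils.

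The genes whose pattern was most like that of each member were found by the root mean square (RMS) difference of centred log2 levels over the 12 libraries, among genes whose mean level was 5 CPM or more. This is a description with no test, and most of it reflects the differences among the 4 groups. Nearest to Lif were Tph1 (RMS 0.775), which encodes tryptophan hydroxylase, the inhibitory receptor gene Ctla4 (0.983) and Tnfrsf8 (1.09), which encodes CD30. Tph1 stood at 4.69 CPM in ILC2s alone and 164 CPM after coculture, and at 0.362 CPM and 0 in eosinophils. Ctla4 and Tnfrsf8 were under 1 CPM in all groups but cocultured ILC2s, where they stood at 201 and 509 CPM. None of these matched Lif as closely as the nearest genes matched the other members.

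Nearest to Osm were Clybl (0.211), Ldha (0.235) and Syce2 (0.272). Ldha, which encodes lactate dehydrogenase, stood at 369 and 2051 CPM in ILC2s alone and cocultured and at 1685 and 670 CPM in eosinophils alone and cocultured. Nearest to Il6 were Tacc3 (0.230), Batf (0.256) and Nme1 (0.260), and nearest to Il6st were Xaf1 (0.248), Fam185a (0.270) and Hacd3 (0.271). Nearest to Il6ra were Icosl (0.283), Tmem273 (0.344) and Tbx6 (0.373), and Icosl, the ligand of ICOS, stood at 283 and 65.7 CPM in ILC2s alone and cocultured. Nearest to Lifr were Gm19719 (0.231), the Fc receptor gene Fcgr1 (0.257) and Cfp (0.272), which encodes properdin. Fcgr1 stood at 33.3 and 17.2 CPM in eosinophils alone and cocultured and is also on the monocyte and macrophage list. With genes down to 1 CPM admitted, none of the 3 nearest genes to Il6 and 1 of the 3 nearest to Il6ra were kept, and all 3 were kept for the other 4 members compared.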

How the data were processed

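The authors deposited raw read counts for each gene, as whole numbers that had not been normalized. Per the submitters' processing notes the tools were bcl2fastq 2.17, Trimmomatic 0.36, STAR 2.5.2b, featureCounts and Subread 1.5.2, on genome build mm10. The release of the annotation, strandedness and the handling of multimapping reads are not stated there, and the sources used here do not give them. With strand unknown, reads of Il6ra and of an overlapping antisense gene, Gm42809, cannot be told apart, although the latter had 0 counts. Per the labels' protocols, Trizol was used for RNA extraction and the NEBNext Ultra II kit for the libraries.

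Symbols and mm10 positions came from GENCODE M21 and exon lengths from its merged exons. Each comparison was fitted in edgeR 4.0.16 (R 4.3.3) after filterByExpr and TMM scaling, using quasi-likelihood F tests and no covariates, adjusting p by Benjamini-Hochberg over all genes tested and calling those under 0.05. The 4 comparisons of 2 groups used their 6 libraries, and the difference of responses used all 12. Comparisons share libraries and are not independent. The SE of a log2 fold change was taken as its absolute value over the root of the F statistic. CPM for levels were scaled by TMM over all 12 libraries. Similarity between genes used log2(CPM + 0.5). The fits were also run on simulated counts with a single fixed dispersion and few changed genes, unlike these data. The outcome is not reported here. No replicate pair agreed within sampling noise (chi-square of 2.57 to 19.5 per degree of freedom), so each library counted once.

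Some members of the lists are not reported here. The 7 members and all gene lists were chosen with earlier results of these data known. From each pathway list the text names up to 3 tested genes with the smallest p per coculture comparison, and ligands and receptor chains above 1 CPM. Fos, in a plot, and the blood cell markers were chosen for the text with their values in view. Partner RNA was estimated as the median relative level of partner markers with at least 10 CPM. Alternatives were library totals, upper quartile scaling, DESeq2 1.42.0, limma-voom (limma 3.58.1), other filters on low counts, a replicate block, all 12 libraries in 1 fit and each library left out.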

Additional observations from a re-analysis of the deposited data

Results flagged for a closer look

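The coculture response of ILC2s minus that of eosinophils passed the test of the difference (edgeR, all 12 libraries) for 4 members. On the log2 scale it was 9.96 for Lif, 4.46 for Osm, 2.91 for Il6 and -3.59 for Il6ra. Lif and Osm rose in ILC2s and fell in eosinophils, whereas Il6 and Il6ra had a called response in ILC2s and none in eosinophils.

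Among inhibitors the difference was 6.92 for Socs3, 3.22 for Socs1, 3.00 for Cish and 1.55 for Ptpn1. Among STAT3 targets it was 7.47 for Vegfa, 3.18 for Bcl3 and 2.82 for Pim1. Among kinases and transcription factors it was 5.55 for Egr1, 1.75 for Jak3, 1.13 for Nfatc2 and -0.63 for Jak1. The edgeR adjusted p was at most 1.32e-07 for these 11 genes, the value of Jak1. These 11 genes were listed because they were called in both cells in opposite directions, so the opposite directions are the rule of selection and not a result. All but Jak1 rose in ILC2s and fell in eosinophils, and Jak1 went the other way. Other named pathway genes also passed the test of the difference without meeting that rule, among them Stat3 (0.82) and Gab2 (1.58).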

How the results depend on the processing

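With the filter of 1 CPM, Il6ra was no longer tested between cocultured cells, so its call there was lost, nor was it tested in eosinophils. Alternatives in which a gene was not tested are left out of the counts that follow. Every one of the 341 counted alternatives of a called member result kept its direction and its call, as did 83 of 93 counted alternatives of member results that were not called. Exceptions were Il6st in eosinophils, which passed with a replicate block (0.98, edgeR adjusted p = 0.0459) and in the fit of all 12 libraries (0.99, edgeR adjusted p = 0.0105), and results that changed sign without passing. Those were Il6ra in eosinophils with limma-voom (0.029) and without library 1 of eosinophils alone (0.41), and Il6 between cells alone with library totals (0.22). For the difference of responses they were Lifr without ILC2s alone 2 (0.07), ILC2s with eosinophils 3 (0.36), eosinophils alone 3 (0.0077) or eosinophils with ILC2s 1 (0.02), and Il6st without eosinophils alone 3 (0.068). With 1 library left out, the log2 difference of responses ran from -0.49 to 0.36 for Lifr and from -0.49 to 0.068 for Il6st, and Il6ra in eosinophils ran from -0.40 to 0.41. The cause was not tested. Total counts of calls, with both directions together, stayed within 1.5 times their value. By direction, the eosinophil genes called higher (1493) came to 948 without library 3 of eosinophils with ILC2s and to 2276 with all 12 libraries in 1 fit.

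Library totals moved the split of called genes between cells alone to 8587 higher and 3664 lower in ILC2s (5923 and 5796 with TMM, a median shift of 0.57 on the log2 scale), and between cocultured cells to 8177 and 4247 (6374 and 5922, a shift of 0.40). In eosinophils they gave 2114 and 1532 (1493 and 1771), in ILC2s 4385 and 6330 (5315 and 5139, a shift of -0.16), and for the difference 3357 and 5112 (4215 and 3899, a shift of -0.19). Of 28 group levels of members 11 moved by more than 1 SD with library totals. Similarity lists changed for 2 of 6 members.

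Whether equal replicate numbers mark paired samples is not known, and the main fits used no pairing. Same-numbered deviations correlated at -0.018 to 0.020 between the ILC2 groups, where 2 of 6 libraries correlated best with their own number. Between the eosinophil groups they correlated at 0.035 to 0.32. There 1 of 3 pairs was over 0.1, and 4 of 6 libraries correlated best with their own number. With so few libraries these correlations cannot decide the question. The replicate block gave 5318 higher and 5104 lower in ILC2s and 2029 and 2139 in eosinophils.

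Of 895 alternatives of other named pathway genes 824 kept direction and call, 28 gained a call, 23 lost one and 20 changed sign. No pathway gene that changed sign passed under the setting that changed it, and of these only Mapk3 in the ILC2 coculture comparison had passed with TMM (0.14, edgeR adjusted p = 0.0112). In ILC2s these were, with library totals, Adam17 (-0.064), Mapk3 (-0.018) and Shc1 (-0.091), Shc1 with upper quartile scaling (-0.0017), Jak2 without a filter (0.0063) and without 1 library (-0.054 to 0.034), and Cntf without 1 library (-0.087 to 0.67). In eosinophils these were Stat3 with library totals (0.031), with all 12 libraries (0.0054) and without 1 library (-0.048 to 0.014), Il27ra with limma-voom (-0.0016), with a 1 CPM filter (-4.2e-05) and without 1 library (-0.12 to 0.17), and, without 1 library, Gab2 (-0.049 to 0.10) and Il11ra1 (-0.095 to 0.16). Depth limits Osmr everywhere, Lifr in ILC2s, Il6ra in cocultured ILC2s and Lif in cocultured eosinophils, all of a few counts per library.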
